A study of Homo sapiens with 24 samples.

Results

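The gene expression of COAD cells and TNBC cells that received no Ocoxin was compared. COAD is represented here by SW620, a cell line from a metastasis of a colon adenocarcinoma. TNBC is represented by HCC-70, a cell line from a triple-negative breast carcinoma, which the study describes as a primary tumour. The libraries were chosen by their labels alone as the 3 control libraries of each line, 6 of the 24 libraries of a series that covers 4 human cancer cell lines with and without the nutritional mixture Ocoxin. RNA was taken from adherent cells, enriched for polyadenylated transcripts and sequenced as read pairs. The treated cells had 48 h in medium with Ocoxin, and the labels attach the dilution 700 to the control libraries of both lines as well, so the letters C (control) and O (Ocoxin) of the sample names decided the groups. What the medium of the control cells held is not given in the sources used here. Each tumour type is a 1-line group, so the tissue, the tumour type, the metastatic or primary origin and the line cannot be told apart. No source says that the 3 libraries of a line came from separate cultures. The p-values below therefore measure the spread between these libraries, which may be technical.

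Epithelial cells keep the transcription programme of the organ they come from to a varying degree after they become tumour cells. In the intestine, CDX, HNF4 and FOXA factors switch on the genes of the brush border, and Wnt signalling, which acts through beta-catenin and TCF/LEF factors, keeps the crypt stem cells dividing. In colon cancer this Wnt pathway is commonly active without its ligand. The mammary gland has a luminal layer, marked by GATA3, FOXA1 and the simple keratins, and a basal layer, marked by KRT5, KRT14 and EGFR. Triple-negative carcinomas are defined by low oestrogen receptor, progesterone receptor and HER2, and many of them show basal keratins. The HOX genes, laid out in 4 clusters, record the position along the body axis at which a tissue formed.

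The 3 COAD libraries held 31265452 to 34397801 counts on genes and the 3 TNBC libraries 37601150 to 39009959. Levels are given as CPM, counts scaled by TMM to a library of 1000000 counts, in the order of the replicate numbers, and n is 3 libraries for each mean ± SD. Differences are given as fold changes or as log2 fold changes (COAD minus TNBC, with the SE), and a gene was called altered at a Benjamini-Hochberg adjusted p under 0.05 in edgeR's quasi-likelihood test. Of 18935 genes tested, 16230 (85.7%) were altered, 8239 of them (43.5% of the genes tested) higher in COAD and 7991 (42.2%) higher in TNBC. With a change of at least 2-fold as a second condition, 9827 genes (51.9%) remained, 4974 (26.3%) higher in COAD and 4853 (25.6%) higher in TNBC. At least 8-fold differences were found for 4028 genes (21.3%), 2044 (10.8%) higher in COAD and 1984 (10.5%) higher in TNBC. The median absolute log2 fold change was 1.06, so a typical gene differed about as much as the 2-fold rule asks, and a share of called genes close to these percentages is no result about a group of genes. The levels of the 3 libraries of a line lay close together, with a common biological coefficient of variation of 6.11%, and the values of COAD and TNBC did not overlap for 16428 genes (86.8% of those tested). The scatter plot of mean levels shows the width of these differences.

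**Figure D1:**
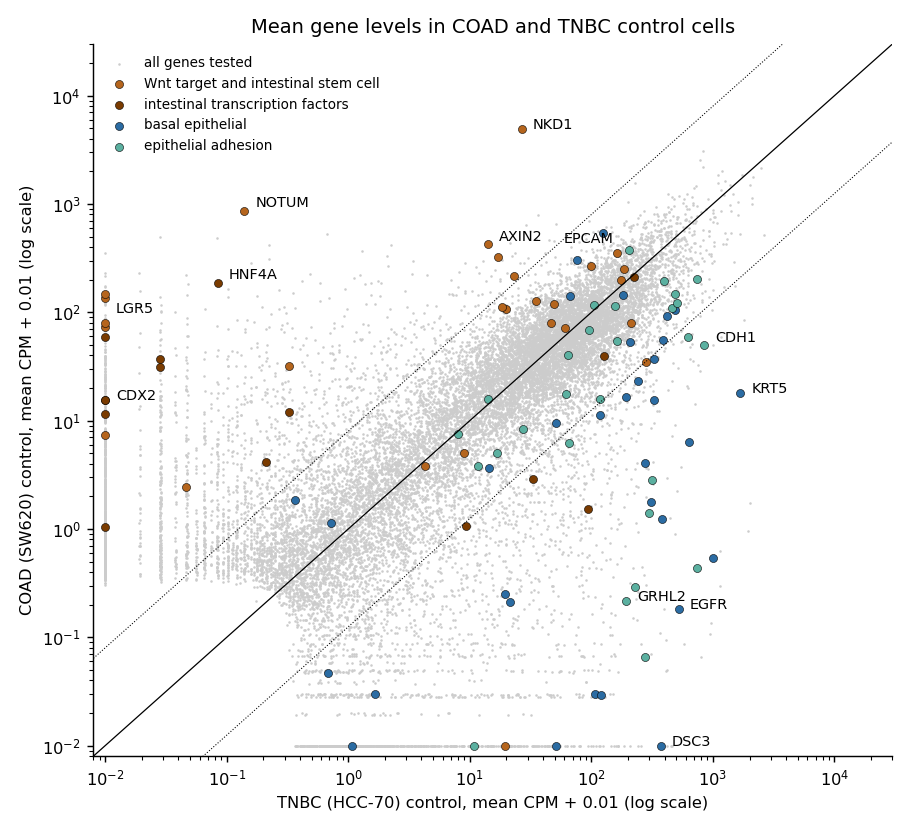
Mean level of each of the 18935 genes tested but for 6 left out, in TNBC control cells (x axis) and COAD control cells (y axis), as CPM + 0.01 on log scales. The solid line marks equal levels and the dotted lines 8-fold differences; coloured points are the tested members of 4 gene lists. Wnt target genes such as NKD1 and NOTUM lie far above the line, and basal and adhesion genes such as KRT5, EGFR and GRHL2 far below it.

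Where a line had 0 counts for a gene in all 3 libraries, the difference is given as a lower bound, set against a floor of 3 counts per library, which is 0.0817 to 0.0908 CPM. Where a line had 1 to 3 counts in all, the ratio is given with its counting interval. A listed 0 is a statement about the table: the 37 mitochondrial genes and MIF, a cytokine gene of the lists below, were at 0 in all 6 libraries. In these bulk libraries, fewer cells with a transcript and less of it in each cell cannot be told apart.

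Both labels were first held against marker genes. Of 10 genes that mark colon epithelium, 5 were higher in COAD, among them HNF4A, CDX2, VIL1 and CDH17, 1 was higher in TNBC (CEACAM5) and LGALS4 did not pass the test, while CDX1, GPA33 and KRT20 were too low to be tested, with 1, 49 and 4 counts in the 3 COAD libraries together. COAD cells thus held regulators of colon epithelium, with few or no counts for several surface and keratin genes of its mature cells. Of 8 genes that mark breast epithelium, 5 were higher in TNBC (GATA3, FOXA1, TRPS1, TFAP2A and SPDEF) and 0 higher in COAD, and the other 3 (ELF5, TFAP2B and SCGB2A2) had at most 4 counts in the 3 TNBC libraries together. SPDEF was barely read in TNBC (0.681, 0.552 and 0.62 CPM), and its call (adjusted p = 0.044) was lost without any 1 of the 6 libraries, with adjusted p-values of 0.0533 to 0.145. All 7 basal markers tested (KRT5, KRT14, KRT17, TP63, FOXC1, EGFR and CDH3) were higher in TNBC.

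The receptors behind the name of TNBC were present to different degrees in HCC-70. PGR, the progesterone receptor, had 0 counts in all 6 libraries. ESR1, the oestrogen receptor, stood at 7.93, 5.79 and 7.87 CPM in TNBC against 0.121, 0 and 0.058 in COAD. ERBB2, which encodes HER2, stood at 255, 273 and 254 CPM in TNBC and 115, 118 and 116 in COAD, a 2.24-fold difference (adjusted p = 1.08e-14).

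Regulators of intestinal identity separated the lines plainly. Of 20 intestinal transcription factors, 14 were tested. Of these, 9 were higher in COAD (64.3%, against 43.5% of all genes tested), 4 higher in TNBC (28.6%, against 42.2%) and 1 did not pass. All 9 were at least 8-fold higher in COAD (64.3%, against 10.8%). HNF4A, a nuclear receptor that drives absorptive cell genes, read 189, 179 and 190.1 CPM in the COAD libraries and 0.0545, 0.0552 and 0.113 in the TNBC libraries, a log2 fold change of 11.23 (SE 0.12, adjusted p = 5.91e-23). CDX2, the homeobox factor that specifies intestine, read 13.3, 16.8 and 16.7 CPM in COAD and had 0 counts in TNBC, at least 188-fold higher. FOXA2, a pioneer factor of gut, liver and lung, read 56.8, 59.9 and 59.8 CPM in COAD and 0 in TNBC, at least 708-fold higher. The 3 libraries of each line stood together in these genes and the lines were far apart. ISX and FOXA3 were higher in COAD too, at 11.6 and 37.2 CPM, whereas KLF5, a factor of dividing crypt cells, stood at 212 ± 4.79 CPM in COAD and 223 ± 12.6 in TNBC (adjusted p = 0.14, or 0.0449 without TNBC replicate 3). The 4 members higher in TNBC were VDR, the vitamin D receptor, GATA6, KLF4 and MECOM, of which MECOM differed most, with 1.53 CPM in COAD and 93 in TNBC. The median log2 fold change of the 14 genes was 6.72, or 4.79 with genes at 0 held at their bound, against 0.04 over all genes tested.

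Brush border and secretory genes gave a mixed picture. Of 38 such genes 21 were tested, with 12 higher in COAD (57.1%, against 43.5% of all genes tested), 7 higher in TNBC (33.3%, against 42.2%) and 2 that did not pass. Those higher in COAD were led by genes that build or anchor microvilli. VIL1, which encodes the actin bundler villin, read 492, 491 and 492 CPM in COAD and had 2 counts in all in TNBC. The ratio was 26649.6-fold (nominal 95% counting interval 7377 to 220055). EPS8L3 read 227, 216 and 202 CPM in COAD and 0 in TNBC, at least 2591-fold higher, and USH1C, which joins the links between microvilli, stood at 229 CPM in COAD. The 3 genes belong to the scaffold of the apical surface, and their COAD libraries lay close together. The fatty acid binding protein FABP1 and the trefoil factor TFF3 followed with 16.9 and 69.9 CPM in COAD and 0 counts in TNBC.

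The genes CEACAM6, AGR2 and CEACAM5 went the other way and were higher in TNBC. CEACAM6 read 0.121, 0.219 and 0.174 CPM in COAD and 421, 433 and 341 in TNBC, so that the breast line held 2257 times the level of the colon line. AGR2, a secretory cell disulfide isomerase, read 0.545, 0.328 and 0 CPM in COAD and 286, 297 and 267 in TNBC. CEACAM5, the carcinoembryonic antigen, was near the floor in COAD (0.0597 CPM) and low in TNBC (1.98 ± 0.639). CEACAM genes are close paralogues, and reads shared between them may be lost or split. LGALS4 and TSPAN8 did not pass the test, with 0.629 ± 0.143 against 0.497 ± 0.113 CPM and 11.6 ± 1.09 against 11.1 ± 2.04 CPM. Of the 17 genes not tested, MUC2, the goblet cell mucin, had 14 counts in COAD and 0 in TNBC, and MEP1A, MUC17 and CLCA1 had 0 in both.

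**Figure D2:**
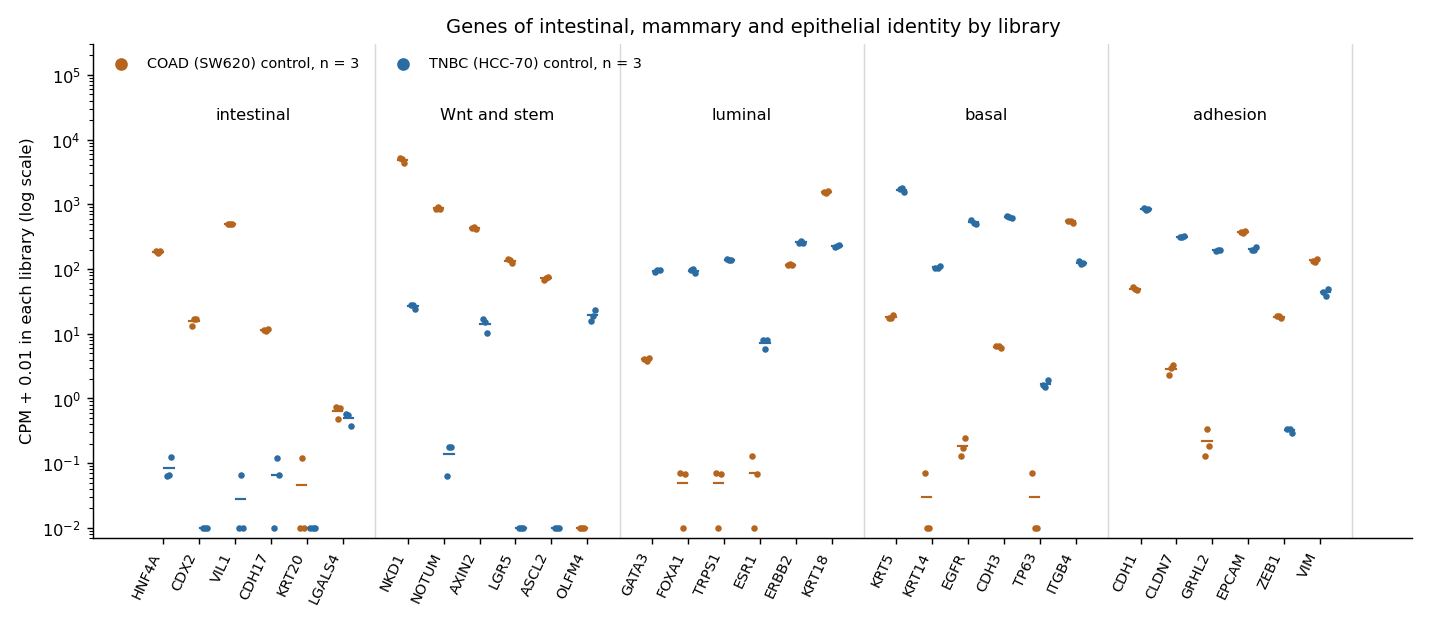
Level of 30 genes of intestinal, Wnt, luminal, basal and adhesion identity in each of the 6 libraries, as CPM + 0.01 on a log scale; points are libraries and bars the mean of 3. COAD libraries hold HNF4A, VIL1, NKD1 and ZEB1 far above TNBC, and TNBC libraries hold KRT5, EGFR, FOXA1 and CDH1 far above COAD; LGALS4 overlaps.

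Wnt target and stem cell genes were higher in COAD as a group. Of 28 genes, all of them tested, 23 were higher in COAD (82.1%, against 43.5% of all genes tested), 4 were higher in TNBC and 1 did not pass, and the median log2 fold change was 2.52. Negative feedback genes, which Wnt signalling switches on and which then damp it, stood high in COAD. NKD1, whose product binds Dishevelled, read 5266, 5084 and 4279 CPM in COAD and 28.3, 28.3 and 24.1 in TNBC, a 181-fold difference (adjusted p = 1.23e-08). NOTUM, a secreted enzyme that strips the lipid from Wnt ligands, read 850.3, 898 and 861 CPM in COAD and 0.0545, 0.166 and 0.169 in TNBC. AXIN2, a scaffold of the beta-catenin destruction complex, read 423, 439 and 409 CPM in COAD and 16.8, 15.4 and 10.1 in TNBC, a log2 fold change of 4.91 (SE 0.19, adjusted p = 5.05e-06). Replicate 3 was the lowest of its line for NKD1 in both lines, by less than the distance between the lines. Per kilobase of transcript, NOTUM (288 CPM per kb) and NKD1 (279.9) were among the 5 most abundant genes that were at least 8-fold higher in COAD.

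The ligase genes ZNRF3 and RNF43, whose products remove Wnt receptors, were 9.39-fold and 5.43-fold higher in COAD, and APCDD1, another inhibitor, 18.8-fold. Among stem cell genes, LGR5, the R-spondin receptor, read 143, 136 and 126 CPM in COAD and 0 in TNBC, at least 1625-fold higher. ASCL2, the transcription factor of crypt stem cells, read 68.5, 73.3 and 76 CPM in COAD and 0 in TNBC, at least 874-fold higher. LEF1, a nuclear partner of beta-catenin, stood at 7.32 ± 0.433 CPM in COAD and 0 in TNBC, while its relative TCF7 differed by 1.18-fold. The oncogene MYC and the cyclin gene CCND1 were 2.68-fold and 2.15-fold higher in COAD, and SOX9, a factor of the crypt base, 1.14-fold. Against this direction, the stem cell gene OLFM4 had 0 counts in COAD and 15.9, 19 and 23 CPM in TNBC, at least 223-fold lower in COAD. CD44, a hyaluronan receptor, was 8.12-fold higher in TNBC and PROM1, the CD133 antigen, 2.61-fold. DKK1, a secreted inhibitor, did not pass, at 3.84 ± 0.631 CPM in COAD and 4.3 ± 0.522 in TNBC.

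SP5, a zinc finger repressor induced by Wnt, read 139, 154 and 151 CPM in COAD and 0 in TNBC, at least 1782-fold higher. Its promoter is printed because it was the 1 promoter searched for the Wnt list that held the TCF/LEF letters CTTTGAT on either strand. Of the 28 genes, 17 had an entry in the RefSeq promoter table of build GRCh38.p14. For each gene, only the promoter listed first was searched. The 250 bases before its start lie at chr2:170715087-170715336 on the + strand, and the capitals mark the motif.
SP5: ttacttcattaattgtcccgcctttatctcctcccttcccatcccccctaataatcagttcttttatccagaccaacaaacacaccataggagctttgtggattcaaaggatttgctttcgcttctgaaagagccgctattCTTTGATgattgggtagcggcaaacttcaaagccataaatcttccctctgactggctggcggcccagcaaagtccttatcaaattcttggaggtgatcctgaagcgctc
The table held 34961 promoters of 27195 genes, and 1 promoter of 300 bases (250 before to 50 after the start) was searched per gene. These letters occurred in 31 of 1133 genes at least 8-fold higher in COAD (2.74%) and in 16 of 1273 at least 8-fold higher in TNBC (1.26%). They occurred in 1.48% of the 12416 tested genes with an entry and in 2.65% of all 27195 genes of the table. The share in the COAD genes was above that of the tested genes, from which they were drawn, and close to that of the whole table. No test was made.

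The letters of HNF4 (CAAAGTCCA), searched in the same way, were rare. They are given because HNF4A was read in COAD and at 8 counts in all in TNBC. They occurred in 9 of the 1133 COAD promoters (0.794%) and in 2 of the 1273 TNBC promoters (0.157%). The shares were 0.298% over the tested genes and 0.36% over all genes of the table, and no test was made. The CAAAG of the HNF4 letters is also part of the TCF/LEF letters read on the other strand, so a stretch can hold both. The COAD genes with the HNF4 letters were CYP2B6, DUSP15, F10, GPR35, HAAO, MISP, MUC13, PDZK1 and TREH, most of which are known from gut or liver, with CYP2B6 at 34.1 and PDZK1 at 39.2 CPM in COAD. These genes were listed after their values were seen. MUC13, a mucin of the apical surface of intestinal cells, read 38.6, 33.7 and 38.2 CPM in COAD and 0.109, 0.0552 and 0 in TNBC (log2 fold change 9.29, or 10.2 without TNBC replicate 1, adjusted p = 3.59e-18). Its promoter is shown as the 1 promoter searched for the intestinal surface list that holds the HNF4 letters. It lies at chr3:124934752-124935001 on the - strand, and the capitals mark the match, which is read on the other strand of the gene.
MUC13: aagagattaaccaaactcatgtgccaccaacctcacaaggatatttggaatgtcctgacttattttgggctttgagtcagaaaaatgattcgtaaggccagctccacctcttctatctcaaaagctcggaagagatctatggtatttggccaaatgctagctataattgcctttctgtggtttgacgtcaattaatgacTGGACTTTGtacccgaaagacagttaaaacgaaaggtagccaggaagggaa
A match describes the letters in this window and is not a measured binding site.

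In TNBC cells, luminal and basal genes of the mammary gland were both high. Of 26 luminal genes 21 were tested, with 18 higher in TNBC (85.7%, against 42.2% of all genes tested) and 3 higher in COAD, and a median log2 fold change of -3.93. GATA3, the factor that maintains luminal cells, read 88.4, 95.6 and 94.9 CPM in TNBC and 4.02, 3.77 and 4.21 in COAD, a 23.2-fold difference. FOXA1, the pioneer factor of hormone receptor binding, read 96.8, 99.7 and 85.9 CPM in TNBC and 0.0605, 0 and 0.058 in COAD. TRPS1, a GATA-like repressor used as a breast marker, read 143, 137 and 140.0 CPM in TNBC and 0.0605, 0 and 0.058 in COAD. Of the FOXA factors, FOXA1 was high in TNBC and FOXA2 and FOXA3 in COAD. KIT, the receptor of luminal progenitors, stood at 65.9 ± 0.699 CPM in TNBC and 0.137 in COAD. The 3 luminal genes higher in COAD were the simple keratin genes KRT8 (3.73-fold) and KRT18 (6.88-fold), shared by gut and breast, and MYB, a member of the Wnt list as well.

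Of 36 basal genes 33 were tested, with 27 higher in TNBC (81.8%, against 42.2% of all genes tested), 4 higher in COAD and 2 that did not pass. The median log2 fold change was -4.02 (-3.62 with genes at 0 at their bound). KRT5 read 1743, 1756 and 1543 CPM in TNBC and 17.3, 17.5 and 19.3 in COAD, a 93.1-fold difference (adjusted p = 2.51e-21). KRT14, its partner in the basal layer, read 104, 105 and 111 CPM in TNBC and had 2 counts in all in COAD. The ratio was 5535-fold (nominal 95% counting interval 1532 to 45702). KRT16, a keratin of stressed epidermis, read 1025, 1071 and 904 CPM in TNBC and 0.454, 0.738 and 0.406 in COAD. Keratin genes of 1 type are close in sequence, so KRT6A, KRT6B, KRT14, KRT16 and KRT17 are uncertain among themselves. The desmosome gene DSC3 read 394, 366 and 356 CPM in TNBC and 0 in COAD, at least 4296-fold lower, and CDH3, P-cadherin, was 101-fold higher in TNBC. TP63, the master factor of basal cells, was low in TNBC at 1.58, 1.49 and 1.89 CPM, and SOX10 had 0 counts in all 6 libraries. The basal genes higher in COAD were the hemidesmosome integrin genes ITGA6 (3.98-fold) and ITGB4 (4.32-fold), TRIM29 and OXTR. 

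Of 15 receptors and ligands of the EGF family 12 were tested, with 7 higher in TNBC (58.3%, against 42.2% of all genes tested), 2 higher in COAD and 3 that did not pass. EGFR read 567, 516 and 492 CPM in TNBC and 0.121, 0.164 and 0.232 in COAD, a 2976-fold difference (log2 fold change -11.54, SE 0.11, adjusted p = 3.24e-23). Among its ligands, EGF itself read 21.8, 23.3 and 17.6 CPM in TNBC and 0 in COAD, at least 242-fold lower. EPGN, AREG, BTC and HBEGF were higher in TNBC too, at 8.16, 10.3, 13.3 and 7.82 CPM, whereas TGFA, EREG and NRG4 did not pass. TGFA stood at 57.1 ± 1.96 CPM in COAD and 55.4 ± 1.75 in TNBC. ERBB3, the receptor without kinase activity, was 1.34-fold higher in COAD, and ERBB4 and the ligand genes NRG1 and NRG3 had at most 1 count over the 6 libraries. The excess over the share of all genes is a matter of few genes. Of 26 integrin genes 19 were tested, with 8 higher in COAD (42.1%, against 43.5% of all genes tested), 10 higher in TNBC (52.6%, against 42.2%) and 1 that did not pass. The subunit genes ITGB6, ITGAV and ITGA3, which form receptors for matrix proteins, were 21.3-fold, 7.17-fold and 6.71-fold higher in TNBC, and ITGB7, known from lymphocytes, was 35.1-fold higher in COAD at 14.4 CPM.

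Genes of cell junctions were lower in COAD. Of 28 epithelial adhesion genes, all tested, 24 were higher in TNBC (85.7%, against 42.2% of all genes tested), 2 higher in COAD and 2 did not pass. The median log2 fold change was -1.83. CDH1, E-cadherin, read 52.2, 48.7 and 47.3 CPM in COAD and 869.8, 813 and 859.7 in TNBC, a 17.2-fold difference (adjusted p = 3.80e-22). GRHL2, a factor that keeps epithelial junction genes active, read 0.121, 0.328 and 0.174 CPM in COAD and 188, 198 and 197 in TNBC. PRSS8, a membrane protease gene, read 0, 0.109 and 0.058 CPM in COAD and 265, 279 and 281 in TNBC. COAD thus held a clear level of CDH1 and next to nothing of GRHL2 and PRSS8. RAB25, MAL2 and AP1M2, genes of membrane traffic in polarised cells, and the claudin gene CLDN7 stood at 0.279, 0.428, 1.39 and 2.82 CPM in COAD and at 227, 735, 299 and 315 CPM in TNBC. EPCAM stood at 372, 362 and 388 CPM in COAD and 195, 196 and 215 in TNBC, 1.85-fold higher in COAD, and ESRP2, a splicing regulator, was 1.1-fold higher there (adjusted p = 0.019), a call lost without COAD replicate 2, TNBC replicate 2 or TNBC replicate 3 (adjusted p = 0.0777, 0.0597 and 0.0842).

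The adhesion list held 15 genes with an entry in the promoter table, each searched at the promoter listed first. CGN, which encodes the tight junction protein cingulin and was 2.99-fold higher in TNBC (53.3, 56.9 and 51.5 CPM in COAD, 169.6, 155 and 160.1 in TNBC), was the 1 of them with the letters AACCNGTT of the GRHL factors on either strand, and is shown for that. The 250 bases before its start lie at chr1:151511137-151511386 on the + strand, with the match, read on the other strand, in capitals.
CGN: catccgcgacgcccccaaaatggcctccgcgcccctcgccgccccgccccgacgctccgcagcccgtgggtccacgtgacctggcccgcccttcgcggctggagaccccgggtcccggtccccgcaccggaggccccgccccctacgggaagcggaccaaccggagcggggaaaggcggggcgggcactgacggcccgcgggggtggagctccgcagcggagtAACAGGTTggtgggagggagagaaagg
The same letters were in 1.77% of the promoters of genes at least 8-fold higher in COAD and in 1.81% of those at least 8-fold higher in TNBC, shares that hardly differed. They were in 1.44% of the promoters of tested genes and in 1.73% of those of all genes of the table, and no test was made.

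Mesenchymal genes differed in both directions. Of 30 genes 20 were tested, with 10 higher in COAD (50%, against 43.5% of all genes tested), 7 higher in TNBC (35%, against 42.2%) and 3 that did not pass. Large differences made up more of this list: 8 genes were at least 8-fold higher in COAD (40%, against 10.8% of all genes tested) and 4 in TNBC (20%, against 10.5%). ZEB1, the repressor of CDH1, read 18.7, 18.9 and 17.5 CPM in COAD and 0.327, 0.331 and 0.282 in TNBC, a 57.9-fold difference (adjusted p = 4.88e-17). VIM, vimentin, read 135, 130.4 and 142 CPM in COAD and 43.9, 38.5 and 48.4 in TNBC, 3.12-fold higher in COAD. CDH2, N-cadherin, had 0 counts in all 6 libraries, and SNAI2 was 2.47-fold higher in TNBC. The matrix gene COL5A1 had 0 counts in COAD and read 28.4, 26 and 54.7 CPM in TNBC, and FN1, fibronectin, read 40.9, 37.6 and 29.3 CPM in COAD and 60.5, 55.8 and 145 in TNBC and did not pass (adjusted p = 0.062). In both genes TNBC replicate 3 stood well above the other 2 TNBC libraries. Without it FN1 passed, with a log2 fold change of -0.71 (adjusted p = 0.00208), and the call of COL5A1 (adjusted p = 0.011) was lost without TNBC replicate 1 or 2 (adjusted p = 0.0621 and 0.0526).

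**Figure D3:**
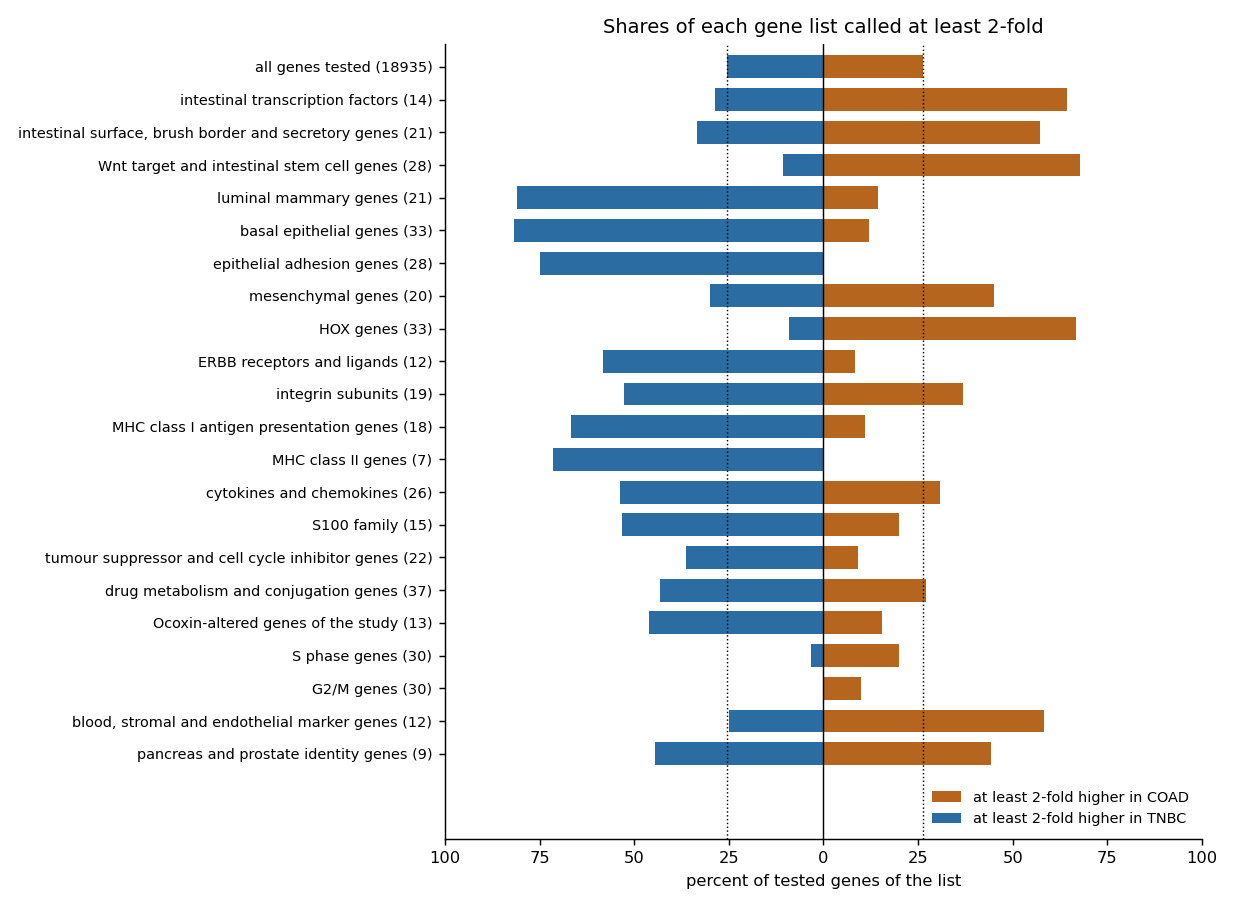
Percent of the tested genes of each list that were altered at least 2-fold, to the right higher in COAD and to the left higher in TNBC; the number tested is in brackets and the dotted lines mark the shares over all 18935 genes tested (26.3% and 25.6%). The Wnt and HOX lists reach past the line on the COAD side alone and the luminal, basal and adhesion lists on the TNBC side alone, while the intestinal, mesenchymal, integrin, cytokine, drug metabolism and pancreas and prostate lists pass both lines.

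HOX genes were higher in COAD as a family. Of 39 genes 33 were tested, with 25 higher in COAD (75.8%, against 43.5%), 4 higher in TNBC and 4 that did not pass, and a median log2 fold change of 2.15. Of the HOXD cluster, which patterns limbs, genitals and hindgut, 5 of 9 genes were read in COAD and 0 in TNBC. HOXD9 read 16.5, 18.6 and 18.4 CPM in COAD and 0 in TNBC, at least 215-fold higher, and HOXD8, HOXD10 and HOXD13 stood at 1.65, 1.09 and 0.639 CPM in COAD with 0 counts in TNBC. HOXD1, HOXD3, HOXD4 and HOXD12 had 0 counts in all 6 libraries, and HOXD11 had 42 counts in COAD. Genes at the posterior end of the A and B clusters showed the same direction. HOXA9 read 40.8, 42.1 and 43.3 CPM in COAD and 0.681, 0.662 and 0.761 in TNBC, a 59.8-fold difference, and HOXB9 was 78.2-fold higher in COAD, with a log2 fold change of 6.29, or 6.93 without TNBC replicate 3. HOXB13, a marker of the hindgut and prostate, read 6.05, 6.07 and 6.15 CPM in COAD and 0 in TNBC, at least 73.4-fold higher.

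The HOXC cluster was shared between the lines. Of its 9 genes, 5 were higher in COAD (55.6%, against 43.5% of all genes tested), 3 higher in TNBC (33.3%, against 42.2%) and 1 (HOXC9) did not pass. HOXC12 read 2.03, 1.72 and 2.26 CPM in COAD and 63.6, 67.8 and 61 in TNBC, a 32-fold difference (adjusted p = 1.98e-19), and HOXC11 was 3.57-fold higher in TNBC. HOXC10 stood at 53, 52.1 and 54.1 CPM in COAD and 60.5, 61.8 and 66.9 in TNBC, 1.19-fold higher in TNBC, a call lost when libraries were scaled to total counts (adjusted p = 0.196). At the anterior end, HOXB2 was the 1 gene of the B cluster higher in TNBC, with 26.6, 25.9 and 23.8 CPM against 2.66, 1.97 and 1.77 in COAD. The 14 tested genes of paralogue groups 9 to 13 had a median log2 fold change of 6.1 (3.33 with genes at 0 at their bound) and the 19 of groups 1 to 8 one of 1.96; the difference between both groups of genes was not tested. Reads were assigned to genes without regard to strand, so those of antisense RNAs in these clusters cannot be told from those of the genes they overlap. HOTAIR, a gene named after its values were seen and the antisense RNA between HOXC11 and HOXC12, stood at 14.7 CPM in COAD and 14.6 in TNBC and did not pass (adjusted p = 0.89).

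**Figure D4:**
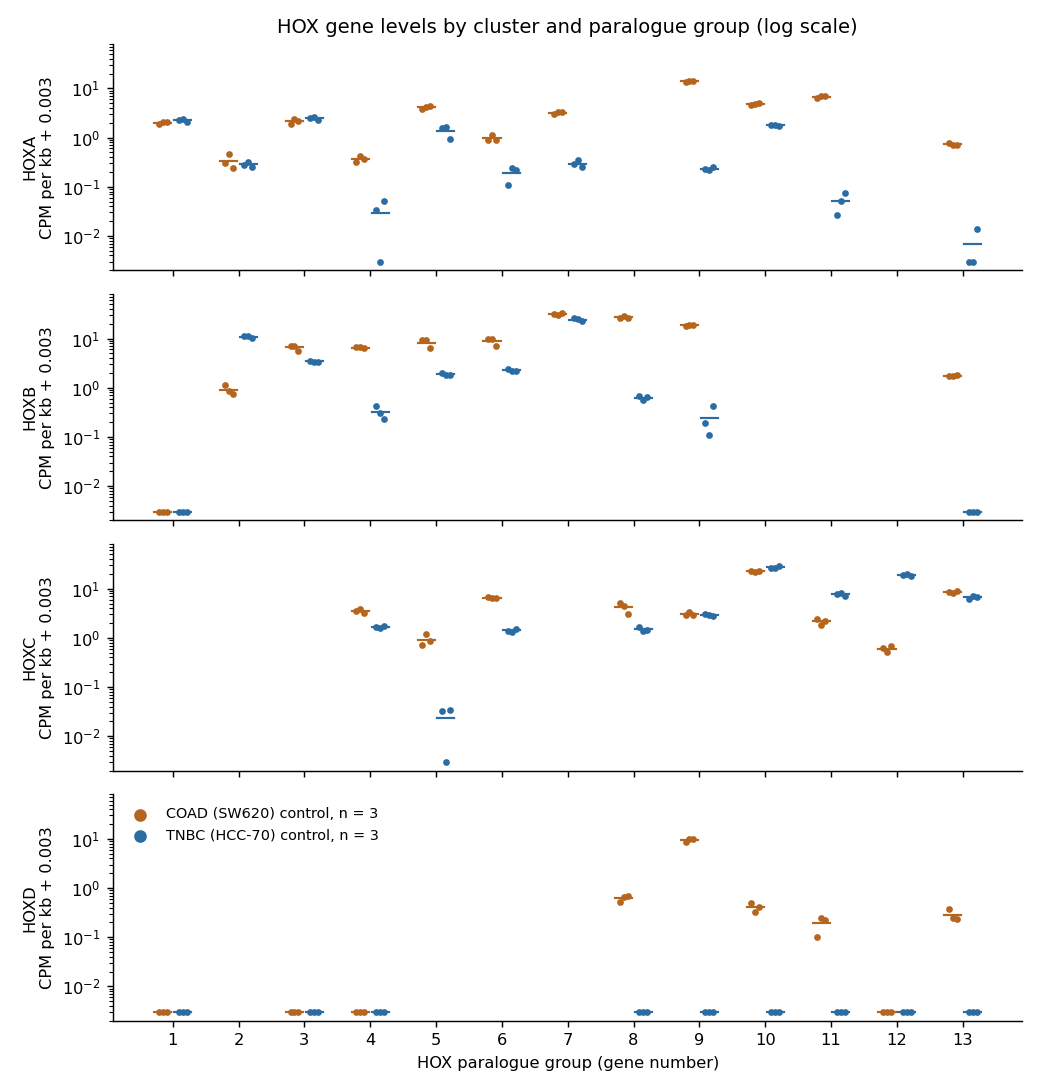
Levels of the 39 HOX genes in each of the 6 libraries, by cluster (panels) and paralogue group (x axis), as CPM per kilobase + 0.003 on a log scale; points are libraries and bars the mean of 3, and points at the lower edge had 0 counts. HOXD8, HOXD9, HOXD10, HOXD11 and HOXD13 are read in COAD alone, and HOXC12 and HOXB2 are higher in TNBC.

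The 10 largest fitted differences in each direction, among protein-coding genes at 10 CPM or more, were all of genes with 0 counts in the other line. A fitted fold over 0 counts depends on the prior count and the true one is known only as a lower bound, so genes with a few counts in the other line, such as VIL1 and NOTUM, can lie above these bounds. Those higher in COAD were PROX1, ADAMTSL2, EPS8L3, DIO3, IGF2BP1, SP5, LGR5, TESC, PHYHIPL and FGF3. PROX1, a homeobox factor that is a Wnt target in colon tumours, read 389, 375 and 304 CPM in COAD and 0 in TNBC, at least 4287-fold higher. IGF2BP1, an oncofetal RNA-binding protein gene, read 177, 181 and 156 CPM in COAD, and FGF3, a growth factor of the embryo, 113, 119 and 116; both had 0 counts in TNBC. Those higher in TNBC were CXCL17, PLCXD3, MGP, TCN1, DSC3, DAPK1, CASP14, MXRA5, SLC34A2 and STS. CXCL17, a mucosal chemokine gene, read 474, 495 and 407 CPM in TNBC and 0 in COAD, at least 5294-fold lower in COAD. MGP, the matrix Gla protein gene, read 407, 406 and 434 CPM in TNBC, and CASP14, a caspase of cornifying epidermis, 229.9, 209 and 291; both had 0 counts in COAD. By level per kilobase, the 5 most abundant genes at least 8-fold higher in COAD were S100A4, NOTUM, NKD1, GPX2 and LDHB, and in TNBC RARRES1, SLPI, CRABP2, IGFBP3 and S100A14. GPX2, the glutathione peroxidase of the gut, read 414, 395 and 433 CPM in COAD and 0.218, 0.248 and 0.169 in TNBC. LDHB was 21.9-fold higher in COAD. The retinoid-responsive RARRES1 read 1928, 1797 and 2109 CPM in TNBC and 0.938, 0.656 and 1.25 in COAD, and CRABP2, which carries retinoic acid to the nucleus, was 19.5-fold higher in TNBC.

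Genes by which cells present antigen and signal to leukocytes were mostly higher in TNBC. Of 19 MHC class I genes 18 were tested, with 15 higher in TNBC (83.3%, against 42.2% of all genes tested), 2 higher in COAD and 1 that did not pass. B2M, the invariant light chain, read 155, 149.7 and 166 CPM in COAD and 828, 834 and 908 in TNBC, a 5.46-fold difference. PSMB9 and PSMB8, immunoproteasome subunits, and TAP1, the peptide transporter, were 26.9-fold, 5.08-fold and 3.7-fold higher in TNBC. HLA-C went the other way and read 90.1, 78.2 and 125 CPM in COAD and 3.24, 4.52 and 4.74 in TNBC. The HLA genes are highly variable paralogues counted on 1 reference genome, so their levels are uncertain and depend on the alleles of each line. CIITA, the switch of class II genes, read 0.666, 0.437 and 0.29 CPM in COAD and 11.2, 10.2 and 14.7 in TNBC, and CD74, the invariant chain, 1.09, 0.82 and 1.45 and 134, 144 and 246. HLA-DRA had 0 counts in all 6 libraries. Of 13 class II genes 7 were tested, 5 of them higher in TNBC (71.4%, against 42.2%) and 1, HLA-DQB1, higher in COAD.

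Of 31 cytokine and chemokine genes 26 were tested, with 15 higher in TNBC (57.7%, against 42.2% of all genes tested) and 9 in COAD (34.6%, against 43.5%). TNFSF10, the death ligand TRAIL, read 35, 37.8 and 37.5 CPM in COAD and 641, 646 and 657 in TNBC, a 17.6-fold difference. CXCL16 and CX3CL1, chemokines with a membrane anchor, were 51.6-fold and 13.4-fold higher in TNBC, and the alarmin IL33 stood at 24.4 ± 1.41 CPM there with 2 counts in all in COAD. COAD had more of the neutrophil and mucosal chemokines CXCL6 (19.8 CPM against 0.681), CXCL1 (24.8 against 5.57) and CCL20 (22.2 against 0.272, 0.0552 and 0.0564 in the TNBC libraries). The log2 fold change of CCL20 was 7.39, or 8.54 without TNBC replicate 1, the highest of its line. IL6 and TNF had at most 4 counts in either line. In the S100 family of calcium-binding proteins, 15 of 19 genes were tested, 11 of them higher in TNBC (73.3%, against 42.2%) and 3 (S100A3, S100A4 and S100A5) in COAD. S100A4, linked to motility, read 566, 529 and 586 CPM in COAD and 32.9, 36.9 and 24.1 in TNBC. S100A9, a calprotectin subunit gene, read 153, 143 and 163 CPM in TNBC and 0 in COAD, at least 1767-fold lower.

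Among 22 tumour suppressor and cell cycle inhibitor genes, 12 were higher in TNBC (54.5%, against 42.2% of all genes tested), 6 higher in COAD (27.3%, against 43.5%) and 4 did not pass. The balance depends on the scaling, since with scaling to total counts or to the upper quartile 11 were higher in TNBC and 9 in COAD. SMAD4, the common partner of TGF-beta signals, read 1.3, 1.42 and 1.16 CPM in COAD and 75.7, 79.4 and 77.4 in TNBC, a 59.6-fold difference (log2 fold change -5.90, SE 0.09, adjusted p = 7.43e-21). Its partner SMAD2 was 3.01-fold higher in TNBC, whereas the receptor gene TGFBR2 was 1.47-fold higher in COAD. The inhibitor genes CDKN2A, CDKN2B and CDKN1A were 5.69-fold, 13.2-fold and 8.09-fold higher in TNBC. These are RNA levels and say nothing of mutations in the proteins.

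Genes of DNA replication were higher in COAD by small factors. Of 30 S phase genes, 22 were higher in COAD (73.3%, against 43.5% of all genes tested), 7 higher in TNBC (23.3%, against 42.2%) and 1 did not pass. The median log2 fold change was 0.54, and 6 of the 30 reached 2-fold in COAD (20%, against 26.3% of all genes tested). POLA1, the catalytic subunit of DNA polymerase alpha, read 191, 187 and 179 CPM in COAD and 46, 45.1 and 50.9 in TNBC, and RRM1, a ribonucleotide reductase subunit gene, was 3.36-fold higher in COAD. CCNE2, a cyclin of S phase entry, was the 1 member at least 2-fold higher in TNBC (3.5-fold). Of 30 G2/M genes, 0 were 2-fold higher in TNBC, and the median log2 fold change was -0.04. Among the 30, 13 were higher in COAD (43.3%, against 43.5% of all genes tested) and 14 in TNBC (46.7%, against 42.2%), close to the shares over all genes. This balance depends on the scaling: with scaling to the total counts, which moves the median of all genes to 0.207, it was 15 against 9 with a median of 0.127, and without COAD replicate 1 it was 13 against 11. MKI67, the proliferation antigen, stood at 479 ± 93.5 CPM in COAD and 365 ± 28.2 in TNBC and did not pass (adjusted p = 0.093). Without COAD replicate 3, the lowest for this gene, its log2 fold change was 0.55 (adjusted p = 1.41e-07).

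Enzymes that handle drugs and foreign compounds differed in both directions. Of 41 genes 37 were tested, with 15 higher in COAD (40.5%, against 43.5% of all genes tested), 20 higher in TNBC (54.1%, against 42.2%) and 2 that did not pass. DPYD, which breaks down fluorouracil, read 0.0605, 0.246 and 0.116 CPM in COAD and 235, 220.3 and 198 in TNBC, a 1477-fold difference (log2 fold change -10.53, or -11.2 without COAD replicate 2; adjusted p = 5.02e-19). ALDH1A1, a retinal and aldehyde dehydrogenase, read 0.242, 0.164 and 0.348 CPM in COAD and 253, 261 and 207 in TNBC. CYP1A1 and CYP1B1, targets of the aryl hydrocarbon receptor, were 26-fold and 54.2-fold higher in TNBC. The export pump gene ABCB1 read 7.02, 7.16 and 7.95 CPM in COAD and 0 in TNBC, at least 88.9-fold higher, and ABCC2, another apical pump, stood at 45.3 CPM in COAD and 0.0741 in TNBC.  GSTM1 had 0 counts in all 6 libraries.

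The study singled out 13 genes that Ocoxin altered, and their starting levels in the control cells are of interest because both lines met the mixture at the same dilution. That list was chosen on these libraries among others, so it is no independent evidence of a direction. In cells without Ocoxin, 8 of the 13 were higher in TNBC (61.5%, against 42.2% of all genes tested), 4 higher in COAD and 1 did not pass; scaled to total counts, 6 were higher in TNBC and 5 in COAD. Of the genes induced by the integrated stress response, ADM2 read 2.72, 2.46 and 2.55 CPM in COAD and 89.7, 93.3 and 83.5 in TNBC, a 34.5-fold difference (adjusted p = 1.54e-20). SESN2, an amino acid sensor that restrains mTORC1, read 5.72, 4.97 and 4.35 CPM in COAD and 83.1, 91.8 and 82.4 in TNBC, 17.1-fold higher in TNBC. CHAC1, which degrades glutathione, was 9.21-fold higher in TNBC, and TRIB3, a pseudokinase gene of the same response, 2.26-fold. All 3 libraries of TNBC lay above all 3 of COAD in these 4 genes, which says little, since the lines did not overlap for 86.8% of all genes tested.

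HMOX1, the haem oxygenase gene controlled by NRF2, read 2.72, 4.04 and 3.6 CPM in COAD and 29.6, 32.3 and 27.6 in TNBC, 8.58-fold higher in TNBC. The other 2 NRF2 targets differed little: TXNRD1, thioredoxin reductase, was 1.17-fold higher in TNBC, and NQO1 read 479, 467 and 517 CPM in COAD and 493, 488 and 496 in TNBC and did not pass (adjusted p = 0.77). Of the zinc genes, the metallothionein gene MT1F read 0.666, 0.656 and 0.987 CPM in COAD and 27.8, 27.8 and 27.2 in TNBC, 35.8-fold higher in TNBC, though metallothionein paralogues share reads. The zinc importer gene SLC39A10 went the other way, with 81.9, 78.8 and 82.5 CPM in COAD and 19.3, 19.4 and 21.7 in TNBC, 4.02-fold higher in COAD, and the exporter gene SLC30A1 was 1.1-fold higher in COAD. Of the genes of cell division, ESPL1, the separase, was 2.09-fold higher in COAD, RAD54L 1.12-fold higher in COAD and KIF20A 1.16-fold higher in TNBC. The calls of 4 of these genes depended on a setting or on 1 library. KIF20A and TXNRD1 lost theirs when libraries were scaled to total counts (adjusted p = 0.435 and 0.227). SLC30A1 lost its call without TNBC replicate 2 or 3 (adjusted p = 0.131 and 0.115), and RAD54L without COAD replicate 2 or TNBC replicate 2 (adjusted p = 0.0561 and 0.134). Both also lost it by DESeq2 (adjusted p = 0.0602 for SLC30A1 and 0.065 for RAD54L) and with no filter on low counts (0.0631 and 0.063), which left 2 of the 13 genes higher in COAD.

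**Figure D5:**
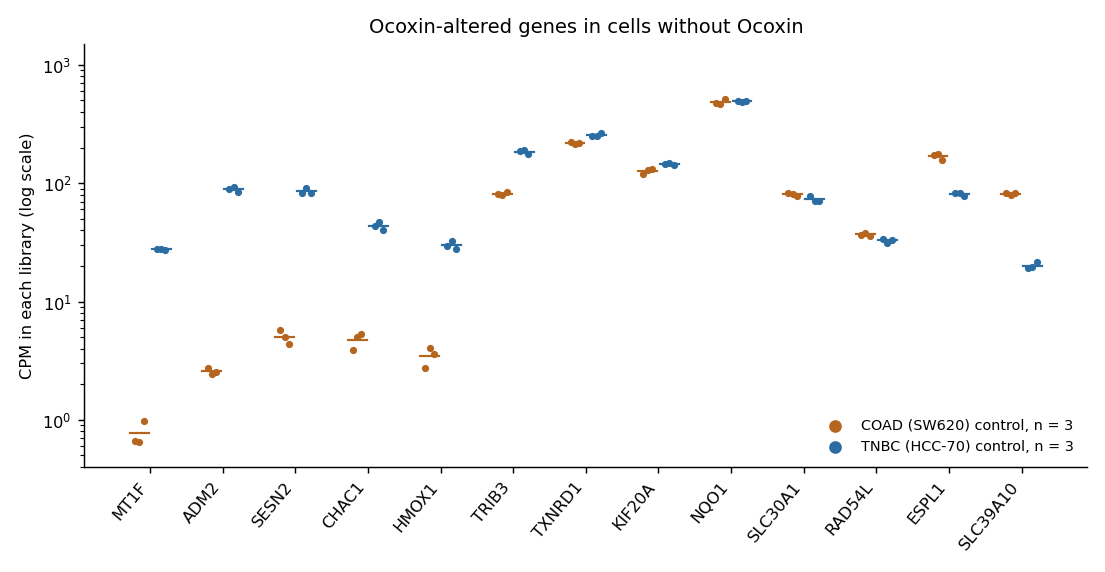
Level of the 13 Ocoxin-altered genes in the 6 control libraries, as CPM on a log scale; points are libraries and bars the mean of 3, ordered by log2 fold change. MT1F, ADM2, SESN2, CHAC1 and HMOX1 are lower in COAD by 8.58-fold or more, SLC39A10 is 4.02-fold higher there, and NQO1 overlaps.

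The same contrast was made in the 3 COAD and 3 TNBC libraries with Ocoxin, which share no library with the controls. There 15998 of 18909 genes tested were altered (84.6%), and among 18431 genes tested in both, 14622 were altered in the same direction, 92.1% of the genes altered in control cells and 93.5% of those altered with Ocoxin; 68 were altered in opposite directions. With at least 2-fold as a condition, 9787 genes (51.8%) were altered with Ocoxin, 8609 genes were shared (90.9% and 91.3%) and 2 were opposed. Of the genes altered at least 8-fold (20.8% of those tested with Ocoxin), 3510 were shared (91.8% and 94.4%) and 0 were opposed. All 30 genes of the 4 rankings above, 13 of 13 intestinal transcription factors called in control cells, 26 of 26 adhesion genes and 25 of 27 Wnt genes were called again in the same direction. Since 92.1% of all genes altered in control cells were called again in this way, these tallies are no result about the lists. The 30 genes had also been chosen for large differences between the same 2 lines. Of the 12 Ocoxin-altered genes called in control cells, 10 were called again in the same direction, and RAD54L changed side, with a log2 fold change of 0.17 in control cells and -0.32 with Ocoxin (adjusted p = 4.64e-04).

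Markers of other cell types were read to see what else the libraries held. PTPRC, the common leukocyte antigen, had 2 counts in COAD and 0 in TNBC, and CD3E, MS4A1, HBB, DCN and COL3A1 had at most 10 counts in either line. Of 22 blood, stromal and endothelial markers 12 were tested, 8 higher in COAD (66.7%, against 43.5% of all genes tested) and 4 in TNBC (33.3%, against 42.2%). The summed level of the 22 was 130 to 138 CPM in COAD and 166 to 175 CPM in TNBC, made up mainly by 1 gene in each line. That gene was CD4 in COAD, at 77.1, 70.2 and 77.1 CPM, and CD14 in TNBC, at 141, 144 and 138 CPM. Of 16 pancreas and prostate genes 9 were tested, 5 higher in COAD (55.6%, against 43.5%) and 4 in TNBC (44.4%, against 42.2%). KLK3, the gene of prostate-specific antigen, read 11, 11.1 and 10.1 CPM in COAD and 0 in TNBC, while FOLH1, another prostate antigen, had 0 counts in COAD and 2 in TNBC. The part of other cells in the results was not tested.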

How the data were processed

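Total RNA of SW620 (COAD) and HCC-70 (TNBC) cells was made into stranded mRNA libraries by the authors. Reads were trimmed with fastp, aligned to hg38 with STAR, cleared of duplicates and assigned with featureCounts 2.0.3, and the deposited values are raw counts per gene. A read pair mostly gave 2 counts, and strand was not used in the counting, so overlapping and antisense genes are uncertain.

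The 6 control libraries were filtered with filterByExpr, scaled by TMM and tested with edgeR's quasi-likelihood fit (4.0.16, robust) on the line alone, with Benjamini-Hochberg adjustment; the fit was tested on simulated counts with known changes. DESeq2 (1.42.0), other scalings and filters, a replicate block and leaving out each library were alternatives. Intervals and floors cover counting error only, and the intervals take each count as independent. Replicates of a line differed by more than the sampling noise of independent counts (chi-square per degree of freedom 2.843 to 9.146). The counts of a read pair are not independent, so these values overstate the spread beyond sampling noise. The members and gene lists were chosen with earlier results of these data known. Genes named were the 10 with the largest difference and the 5 most abundant 8-fold genes in each direction, the members of each list with the largest differences or that did not pass, and the 13 Ocoxin-altered genes; a few are not reported here. Promoters and their coordinates came from a RefSeq table of build GRCh38.p14, matched by symbol, which held 12416 of the genes tested. Where a gene had several promoters, only that listed first was searched.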

Additional observations from a re-analysis of the deposited data

How the results depend on the processing

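The number of altered genes stayed within 1.5 times of 16230 under every alternative run but 1: against a null of a 2-fold change (glmTreat) 8551 genes passed, and the share of them higher in COAD was 49.7%, on the other side of an even split from the 50.8% of the main fit. With a mean of at least 50 counts required, 2431 genes differed at least 8-fold in place of 4028. The share higher in COAD rose to 55.9% with total-count scaling and to 55.6% with upper quartile scaling, which moved the median log2 fold change of all genes from 0.0376 to 0.207 and 0.194, and 145 and 104 genes called in the main fit changed sign. NQO1, not called in the main fit, then read 0.156 and 0.143 on the log2 scale, higher in COAD (adjusted p = 0.00202 and 0.00483, edgeR), and TGFA passed in the same direction. DESeq2 called 17132 genes.

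Leaving out 1 library gave 16150 to 16561 altered genes and shares of 50.8% to 51.3%. Of 181 named members of the lists and rankings that were tested, 159 kept their side of the threshold under all alternatives; 9 of the other 22 changed under glmTreat alone. In 17 called genes with at most 66 counts in the lower line, leaving out 1 library moved the fold by over 1.5 times, with 0 calls lost. The gene lists kept the direction of their majority under both scalings except the G2/M list. With the replicate block 15971 genes were altered, and SPDEF was the 1 gene named that lost its call (adjusted p = 0.0931). Deviations of libraries of the same number had correlations of -0.0113 to 0.0217, and those of different numbers -0.0419 to 0.0472. In both lines the comparisons with replicate 3 had the largest chi-square per degree of freedom (6.832 to 9.146, against 2.843 in COAD and 4.411 in TNBC). With 3 libraries per line, these values cannot show whether the numbers pair the samples.

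Depth limits statements on genes at 0. The floor of 3 counts per library, 0.0817 to 0.0908 CPM, was a chosen bound, and some genes were read at levels under it. Each tumour type is 1 line, so nothing here extends to other lines of either tissue.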

Other observations

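The direction of the differences varied by chromosome. The median log2 fold change (COAD minus TNBC) over the 14070 protein-coding genes tested was -0.03. Over the protein-coding genes of 1 chromosome it ran from -0.95 on chromosome 18 (191 genes) to 0.88 on chromosome X (491 genes). Chromosomes 11, 17, 12 and 20 had medians of 0.66, 0.65, 0.54 and 0.52, and chromosomes 1, 22, 16 and 7 had -0.71, -0.41, -0.40 and -0.39. Over all protein-coding genes tested, 25.8% were at least 2-fold higher in TNBC and 23.7% in COAD. On chromosome 18 these shares were 47.6% and 9.42%, and on chromosome X 16.3% and 46.6%. On chromosome 2 both shares were alike (20.3% and 23.4%). SMAD4, SMAD2 and DSC3, described above as higher in TNBC, are genes of chromosome 18.

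Some genes at or near 0 in 1 line followed each other in the order of genes on a chromosome, with genes low in both lines skipped. Of 13239 protein-coding genes with a mean of at least 1 CPM in either line, 420 had at most 3 counts in every COAD library and 411 had at most 3 in every TNBC library. Runs of 3 or more such genes in a row among the 13239 numbered 11 in COAD and 8 in TNBC. Other genes, such as those under 1 CPM in both lines, can lie between the members, so a run need not be an unbroken block. In COAD the longest held SERPINB4, SERPINB3, SERPINB7, SERPINB2 and HMSD, and another held SLC25A21, MIPOL1, FOXA1 and TTC6 (chr14:36678431-38041442, hg38). In TNBC one held ADAMTSL2 with MYMK, FAM163B and DBH, and others held HOXD10, HOXD9 and HOXD8, the kallikrein genes KLK1, KLK3 and KLK2, and the stem cell gene ASCL2 with C11orf21 and TSPAN32. These runs were found after the values were seen and were not tested.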
